A study of Mus musculus with 183 samples.

Results

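This report describes 5 genes of mouse embryonic stem cells, Txnip, Arrdc4, Arrdc3, Mlxip and Mlx, among the 53380 genes of the count table. They were picked by name as a glucose-responsive group, with their levels and half-lives in these libraries already known, so these values are given as a description and carry no test of their own. Txnip, Arrdc4 and Arrdc3 encode alpha-arrestins. Mlxip (MondoA) and Mlx do not, although the group was named for arrestins: they encode basic helix-loop-helix leucine zipper transcription factors.

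In the textbook pathway, MondoA waits outside the nucleus with its partner Mlx until phosphorylated hexoses accumulate, then the pair binds carbohydrate response elements in promoters, with Txnip and Arrdc4 as its best known targets. TXNIP binds thioredoxin and lowers glucose uptake by promoting the internalisation of glucose transporters. ARRDC4 and ARRDC3 are adaptors that bring ubiquitin ligases of the NEDD4 family to membrane proteins, and Txnip mRNA is known for being short-lived.

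The promoters of Txnip and Arrdc4 are shown because both genes are textbook MondoA targets. A further reason was that both were higher, relative to the median gene, in the libraries labelled day 4. Arrdc3 was higher there too. Each line gives 250 bases before and 50 bases after the start site, 5′ to 3′ on the gene's strand, from RefSeq on GRCm38.p6, at chr3:96557707-96558006 on the plus strand for Txnip and at chr7:68749189-68749488 on the minus strand for Arrdc4. Capitals mark the sets of letters that were searched on both strands. The E-box is CACGTG. A variant of the E-box that was also searched is CACGAG. The CCAAT box appears as ATTGG where it lies on the opposite strand.
Txnip: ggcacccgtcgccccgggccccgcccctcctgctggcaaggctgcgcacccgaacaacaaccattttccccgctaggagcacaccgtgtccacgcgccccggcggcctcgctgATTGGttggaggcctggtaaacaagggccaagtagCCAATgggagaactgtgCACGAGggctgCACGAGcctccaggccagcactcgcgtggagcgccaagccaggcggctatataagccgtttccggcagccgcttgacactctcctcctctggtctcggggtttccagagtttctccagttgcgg
Arrdc4: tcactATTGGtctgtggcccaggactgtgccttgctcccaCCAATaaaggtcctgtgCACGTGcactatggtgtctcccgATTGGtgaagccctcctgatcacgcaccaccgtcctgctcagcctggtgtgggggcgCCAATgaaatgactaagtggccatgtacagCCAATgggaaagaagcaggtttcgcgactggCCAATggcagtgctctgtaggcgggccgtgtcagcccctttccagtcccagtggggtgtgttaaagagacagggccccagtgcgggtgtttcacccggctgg

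The Txnip promoter held CACGAG at −85 and at −74 from the start site, 2 copies with 5 bases between them. A pair of CACGNG letters (N being any base) on the same strand with this spacing occurred in 16 of the 32851 mouse promoters of the same length, or 0.0487%. The Arrdc4 promoter held CACGTG at −193 and 6 copies of CCAAT, where 1.06% of all promoters held 4 or more. Txnip, Mlxip and Mlx each held 2 copies of CCAAT, and 11.7% of promoters held 2 or more. The Mlx promoter held CACGTG at −40, a set of letters found in 7.15% of promoters, against 6.47% for CACGAG. Neither E-box sequence was in the Mlxip window or in the 3 windows listed for Arrdc3. A match or its absence is a description of the letters in a window.

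RNA was measured in 47 libraries from 2 clones of embryonic stem cells grown in serum and LIF. Clone 5F (Rosa26Cre-ERT2/- Skiv2l fl/fl) has intact Aven, and clone 7E, Aven-/- with Rosa26Cre-ERT2/BirA-V6 and a tagged Skiv2l on both alleles (Skiv2l3xFLAG-Avi/3xFLAG-Avi), lacks it. The study's methods describe the double mutant as also carrying floxed Skiv2l. Both clones express CreERT2, and 4OHT (4-hydroxytamoxifen) activates it to remove the floxed Skiv2l exons. SKIV2L is the helicase that feeds RNA to the cytoplasmic exosome, and AVEN is a protein that interacts with it. Each clone was sampled at day 0 without 4OHT and at day 4 of 0.1 µM 4OHT. At each day, cells received actinomycin D, which stops transcription, in fresh medium for 120, 240 or 360 min, or DMSO alone for 360 min (mock). The mock libraries therefore stand for time 0 in the decay course but also had 360 min in fresh medium, and glucose was not varied between groups. Each group held 3 libraries, but clone 5F had 2 after 120 min at day 0. By the methods these are technical replicates, so p-values measure only that spread. With 1 clone per genotype, clone and genotype cannot be told apart, and in bulk RNA fewer cells of a type and less RNA per cell cannot be told apart either.

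Totals ran from 24440935 to 34114250 gene counts per library. Aven had a median of 1.08 CPM (counts scaled to a common total) in the 24 libraries of clone 7E and 45.5 in the 23 of clone 5F. Skiv2l mock normalized counts averaged 4163 ± 36.5 at day 0 and 4134 ± 296 at day 4 in clone 5F (SD, n = 3), a log2 change of −0.01 ± 0.05 (SE, adjusted p = 0.914, quasi-likelihood test of edgeR with p-values adjusted by Benjamini-Hochberg). In clone 7E they were lower at both days, at 969.5 ± 67.5 and 387.5 ± 19.1, a log2 change of −1.32 ± 0.07 (adjusted p = 7.86e-13, same test). The count of the whole gene includes exons that 4OHT leaves in place, so it does not measure recombination. Since it did not fall in clone 5F, day 4 of that clone is called by its label here. The 6 pluripotency markers of the labelled cell type were present, at sums of 2270 to 2330 CPM at day 0 and 2060 to 2190 at day 4 in clone 5F, and of 2420 to 2540 and 2020 to 2100 in clone 7E. At day 4 relative to the median gene, 2 of them rose and 2 fell in clone 5F, and 5 fell in clone 7E. Primitive endoderm markers (5 genes) summed to 101 to 108 in clone 5F at day 0, 79 to 81.3 at day 4, 11.6 to 13.7 in clone 7E at day 0 and 15.3 to 16.4 at day 4. Trophectoderm markers (4 genes, Elf5 at 0 to 3 counts) summed to 55.8 to 61.8 and 58 to 68.8 in clone 5F at days 0 and 4, and to 34.4 to 38.2 and 83.6 to 97.8 in clone 7E. Fibroblast markers (4 genes) summed to 5.58 to 6.43 and 7.83 to 9.27 in clone 5F, and to 2.27 to 2.79 and 5.22 to 6.69 in clone 7E. All 3 of these sums were thus higher at day 4 in clone 7E, and the fibroblast sum in clone 5F too. In clone 7E the trophectoderm rise came mostly from Krt8 (mean 31.3 to 84.1 CPM), with Eomes at 4.37 and 4.92 and Cdx2 at 0.6 and 1.01. The primitive endoderm rise came mostly from Foxa2 (2.72 to 6.52). Dab2 went from 4.35 to 3.49, and Gata4, Gata6 and Sox17 moved by less. Whether cells of other types had a part in the results below was not tested.

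Of the 5 genes Txnip had the largest log2 change at day 4 relative to the median gene. Txnip (ENSMUSG00000038393, chr3:96557957-96561883, plus strand, GRCm38) had 4359, 4232 and 4371 normalized counts in the 3 day 0 mock libraries of clone 5F. In the mock libraries labelled day 4 it had 11624, 11822.5 and 11585. In clone 7E it had 6212, 6252 and 5790.2 at day 0, and 16957, 16875 and 14499 at day 4. No pair of these 4 groups overlapped. From lowest to highest they were clone 5F day 0, clone 7E day 0, clone 5F day 4 and clone 7E day 4. How many of all genes had groups apart in this way was not counted, here or for the genes below. The day 4 level was 2.7-fold the day 0 level in clone 5F (log2 1.43 ± 0.04, SE) and 2.65-fold in clone 7E (log2 1.40 ± 0.06, or 0.31 when each library was scaled to its own spike-in total). The difference between these log2 changes was −0.03 ± 0.07. A short antisense gene, Gm15441, shares 19.4% of the exonic bases of Txnip, and the labels name a TruSeq v2 kit, which does not mark strand. Gm15441 held 8 to 35 counts in the 12 mock libraries. That count does not show how reads of the shared part were assigned.

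Arrdc4 was the least abundant of the 3 arrestin mRNAs. Arrdc4 (ENSMUSG00000042659, chr7:68736995-68749241, minus strand) had 1066, 929 and 949 normalized counts at day 0 and 1540.3, 1469 and 1413 at day 4 in clone 5F. In clone 7E it had 801, 777 and 801 at day 0 and 1388, 1328 and 1294 at day 4. These groups did not overlap either, but here clone 7E was the lower clone at both days, whereas for Txnip it was the higher. The log2 change at day 4 was 0.59 ± 0.06 in clone 5F and 0.75 ± 0.06 in clone 7E. In clone 7E this is a rise relative to the median gene only, since it became −0.34 when each library was scaled to its own spike-in total.

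Arrdc3, known as an adaptor in the degradation of adrenergic receptors, moved the same way as Arrdc4 by a smaller amount. Arrdc3 (ENSMUSG00000074794, chr13:80883384-80896042, plus strand) had 4829, 4497 and 4755 normalized counts at day 0 and 5946, 6509 and 5961 at day 4 in clone 5F. In clone 7E it had 3858, 3698 and 3786 at day 0 and 5723, 6077 and 5083 at day 4. Day 0 and day 4 were apart within each clone, while the day 4 groups of the clones overlapped. The log2 change was 0.39 ± 0.05 in clone 5F and 0.57 ± 0.06 in clone 7E, the latter again relative to the median gene, with −0.53 under each library's own spike-in total.

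The transcription factor genes moved the other way or little. Mlxip (ENSMUSG00000038342, chr5:123394798-123457932, plus strand) had 666, 761 and 633 normalized counts at day 0 and 613, 636 and 702 at day 4 in clone 5F, and these groups overlapped. In clone 7E it had 716, 783 and 669 at day 0 and 479.7, 492.5 and 532 at day 4, with no overlap. The log2 change was −0.08 ± 0.08 in clone 5F and −0.53 ± 0.08 in clone 7E, and these log2 changes differed by −0.44 ± 0.11.

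Mlx encodes the dimer partner that MondoA shares with the related factor ChREBP. Mlx (ENSMUSG00000017801, chr11:101087277-101092207, plus strand) had 1508, 1505 and 1544 normalized counts at day 0 and 1353, 1212 and 1291 at day 4 in clone 5F. In clone 7E it had 1357, 1296 and 1431 at day 0 and 1222, 1245 and 1274 at day 4. Day 4 lay below day 0 in each clone without overlap, but the range of clone 5F at day 4 overlapped both clone 7E groups. The log2 change was −0.24 ± 0.06 in clone 5F and −0.13 ± 0.06 in clone 7E. Psmc3ip, on the opposite strand, shares 19.3% of the exonic bases of Mlx and held 452 to 819 counts per mock library, so reads of the shared part cannot be assigned between them.

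**Figure D1:**
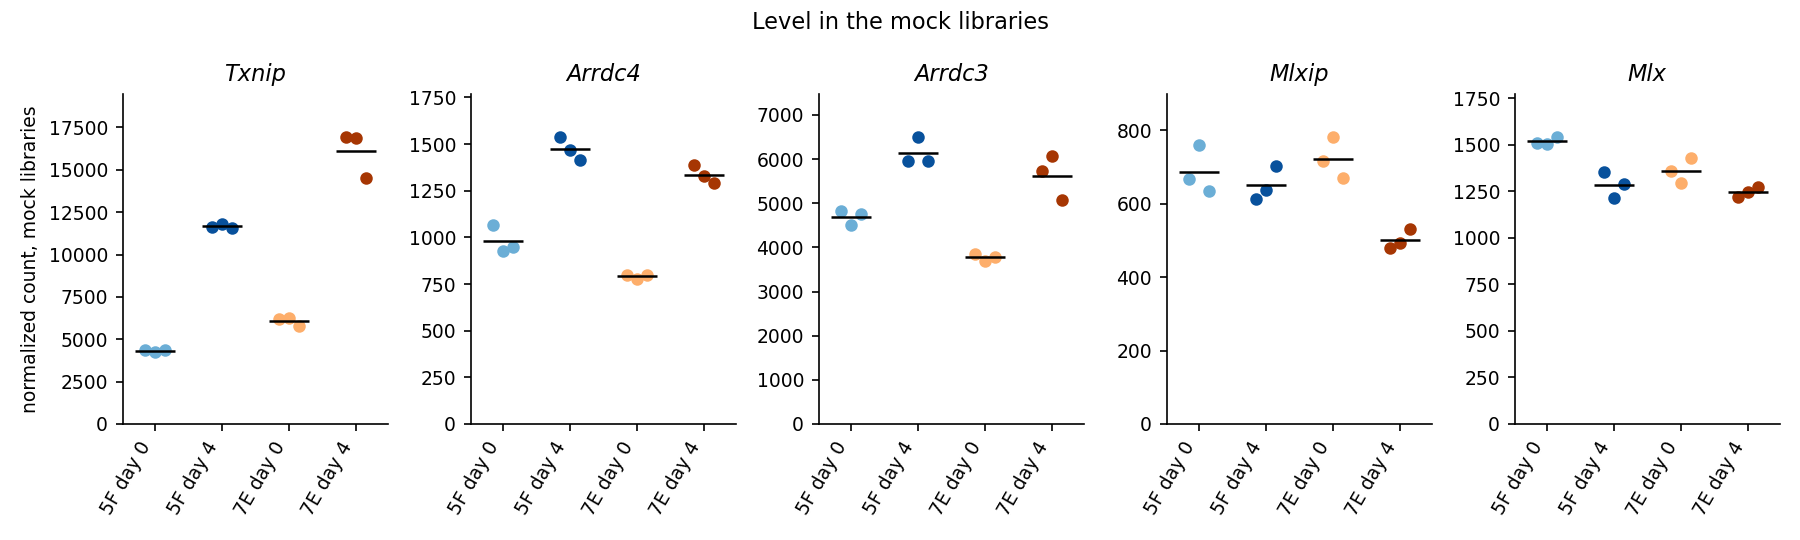
Normalized counts (linear axis from 0) of the 5 genes in the 12 mock libraries, 3 points per clone and day, with a black line at the group mean. Txnip, Arrdc4 and Arrdc3 lie higher at day 4 than at day 0 in both clones under this scaling (in clone 7E, the values of Arrdc4 and Arrdc3 reverse under each library's own spike-in total), and Mlxip is lower at day 4 in clone 7E.

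Set against all genes, 4 of the 5 genes were called at an adjusted p under 0.05 in clone 5F (Txnip, Arrdc4, Arrdc3 and Mlx), where 24.5% of all tested genes were called, 12.8% higher and 11.6% lower. In clone 7E 4 were called (Txnip, Arrdc4, Arrdc3 and Mlxip), against 40.1% of all genes, 20.7% higher and 19.4% lower. For the difference between the clones' responses only Mlxip was called, against 11.9% of all genes (6.65% higher, 5.29% lower), and not without replicate 1. Same-numbered libraries of the clones deviated together at each day and time, and with these as a block, an alternative chosen after seeing the data, Arrdc3 was called as well (log2 0.18), among 4151 of 17209 genes. As the members were chosen with these contrasts known, nothing is read from these counts or from groups that did not overlap. Mlx in clone 7E did not overlap between the days and yet was not called. In clone 7E the spike-in scaling lowered the median of all genes by log2 −1.11, since the ratio of gene counts to spike-in counts went from 319 ± 5.59 to 153 ± 2.35 between the mock groups (SD, n = 3), while in clone 5F it went from 348 ± 14.5 to 341 ± 15.3. Under the same scaling the difference of response between the clones was −1.06 for Txnip, −0.86 for Arrdc4, −0.85 for Arrdc3, −0.91 for Mlx and −1.47 for Mlxip, beside a median over all genes of −1.03.

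Before 4OHT, Txnip was 1.41-fold higher in clone 7E than in clone 5F (log2 0.49 ± 0.04), while Arrdc4 and Arrdc3 were lower (both log2 −0.31, SE 0.06 and 0.04), as was Mlx (−0.16 ± 0.05). Mlxip overlapped between the clones (log2 0.07 ± 0.07). The first 4 were called, against 39.7% of all genes (20% higher, 19.7% lower). The call on Mlx was lost without replicate 1 or without replicate 2, where its log2 difference was −0.16 and −0.13.

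Compared per kilobase of the transcript length that the authors list, the order of the 5 genes in the mock libraries was Txnip, Arrdc3, Mlx, Arrdc4 and Mlxip in every group. At day 0 in clone 5F these levels were 1546 ± 27.6 for Txnip, 1144.5 ± 42.5 for Arrdc3, 773 ± 11.1 for Mlx, 251 ± 19.0 for Arrdc4 and 94.0 ± 9.06 for Mlxip (SD, n = 3). At day 4 in clone 7E Txnip was at 5764 ± 500 and Mlxip at 68.6 ± 3.71. Per kilobase of merged exons in the annotation, Arrdc3 was at 749 ± 27.8 and Mlx at 760 ± 11.0 in clone 5F at day 0, and at 603 ± 12.8 and 681 ± 34.0 in clone 7E, so their order depends on the length used. By either length Txnip was the highest and Mlxip the lowest in every mock group. Neither length was corrected for exonic bases shared with other genes.

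After transcription was stopped, Txnip and Arrdc3 fell fastest. Of the mock level of Txnip, 16.2% ± 0.561 (SD, n = 2) was left after 120 min in clone 5F at day 0, and 14.4% ± 0.403, 12.3% ± 0.372 and 14.8% ± 0.579 (n = 3 each) in clone 5F day 4, clone 7E day 0 and clone 7E day 4. After 360 min 5.38%, 3.24%, 4.32% and 3.83% were left in the same order. The loss was steep and then slower: the 120 min values correspond to a half-life of 45.7, 43.0, 39.7 and 43.5 min, and the span from 120 to 360 min to one of 151, 111, 159 and 123 min. A straight line through all times gave Txnip half-lives of 85.7, 75, 81.7 and 78.7 min, which average over these phases. Of 10987 ranked genes (median half-life 277 to 279 min), 3.4%, 0.937%, 1.79% and 0.874% had a shorter fitted half-life than Txnip.

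Arrdc3 followed almost the same course. Its fitted half-life was 86.6 min in clone 5F day 0, 84.7 min in clone 5F day 4, 93.5 min in clone 7E day 0 and 92.1 min in clone 7E day 4, and 16.4% to 21.6% of the mock level was left at 120 min. The early half-life was 46.0 to 54.2 min. Between 2.2% and 3.61% of the ranked genes decayed faster.

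Arrdc4, although related to Txnip and Arrdc3 in sequence family, was a slower transcript. Its half-life was 419 min (381 to 465 from the SE of the slope) in clone 5F day 0 and 387 min (364 to 414) in clone 7E day 0. In the libraries labelled day 4 it was 251 min (240 to 264) in clone 5F and 216 min (209 to 223) in clone 7E. The share left at 360 min was 53.2% ± 4.45 and 35.7% ± 2.83 in clone 5F at days 0 and 4, and 50.9% ± 3.79 and 31.0% ± 1.47 in clone 7E (SD, n = 3).

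In normalized counts, the day 4 to day 0 ratio of Arrdc4 in clone 5F went from 1.50 in the mock libraries to 1.35, 1.16 and 1.01 at 120, 240 and 360 min. In clone 7E it went from 1.69 to 1.37, 1.10 and 1.03. Day 0 and day 4 overlapped at 360 min in both clones and at no earlier time, so the higher level of Arrdc4 at day 4 was no longer seen at the end of the course. The Txnip ratio fell too in clone 5F, from 2.7 in the mock libraries to 2.41, 2.33 and 1.63. In clone 7E it was 2.65 in the mock libraries, then 3.19, 3.11 and 2.35. All these ratios are relative to the median gene at each time.

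Mlxip and Mlx dropped early and then levelled. Mlxip had half-lives of 405, 360, 312 and 328 min and Mlx of 382, 414, 437 and 341 min (clone 5F days 0 and 4, clone 7E days 0 and 4). For Mlx 54.3% to 58.7% was left at 120 min and 47.0% to 54.6% at 360 min, so that a single half-life describes its course poorly. Mlxip libraries were more scattered, with an SD of up to 17.9 percentage points at 240 min in clone 5F day 0. The lowest Mlxip library was replicate 1 at 120 min, 2 at 240 min and 3 at 360 min in every clone and day. Clone 5F day 0 had only replicates 1 and 3 at 120 min. The lowest Txnip library had the same replicate numbers at these times in every clone and day. The cause of this pattern was not tested.

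**Figure D2:**
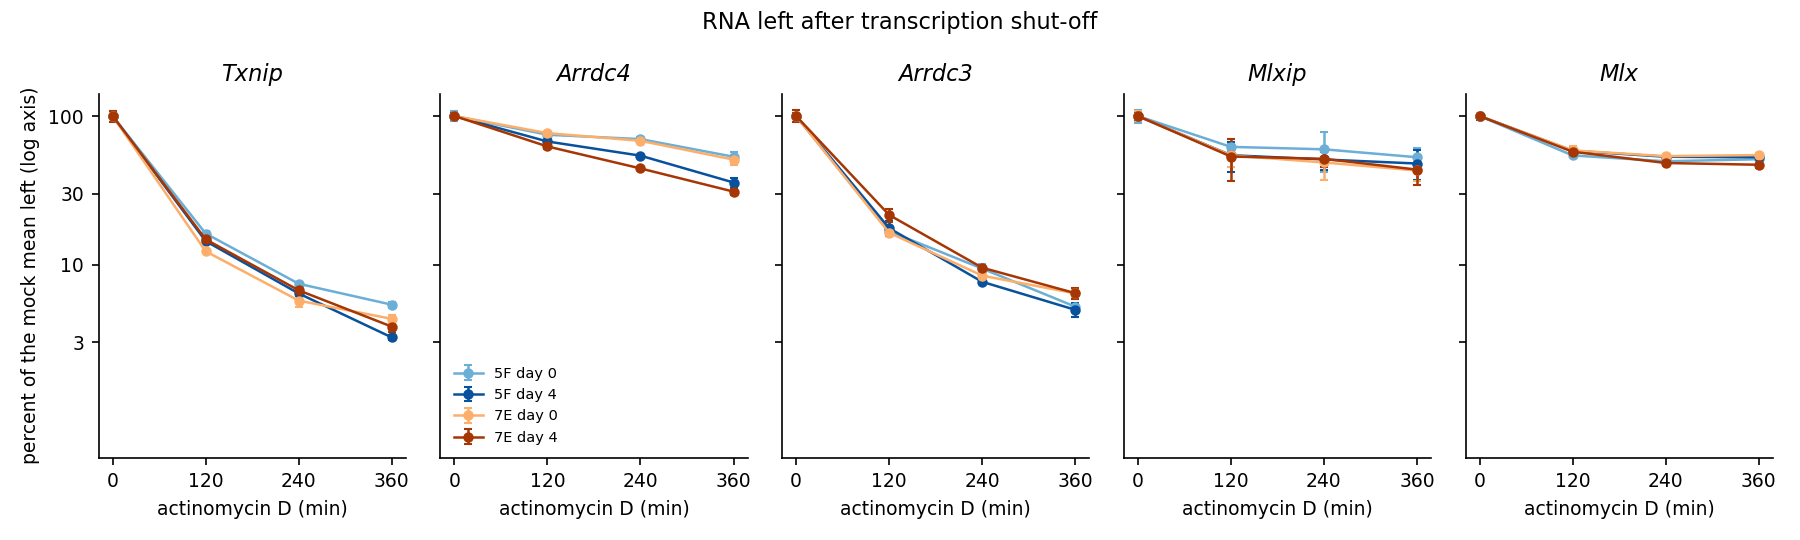
Percent of the mock mean left (log axis) against minutes of actinomycin D for each gene, by clone and day, as mean and SD of 3 libraries (2 for clone 5F day 0 at 120 min). Txnip and Arrdc3 are at 12.3% to 21.6% at 120 min, Arrdc4 falls lower at day 4 than at day 0 in both clones, and Mlx and Mlxip level off after 120 min.

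**Figure D3:**
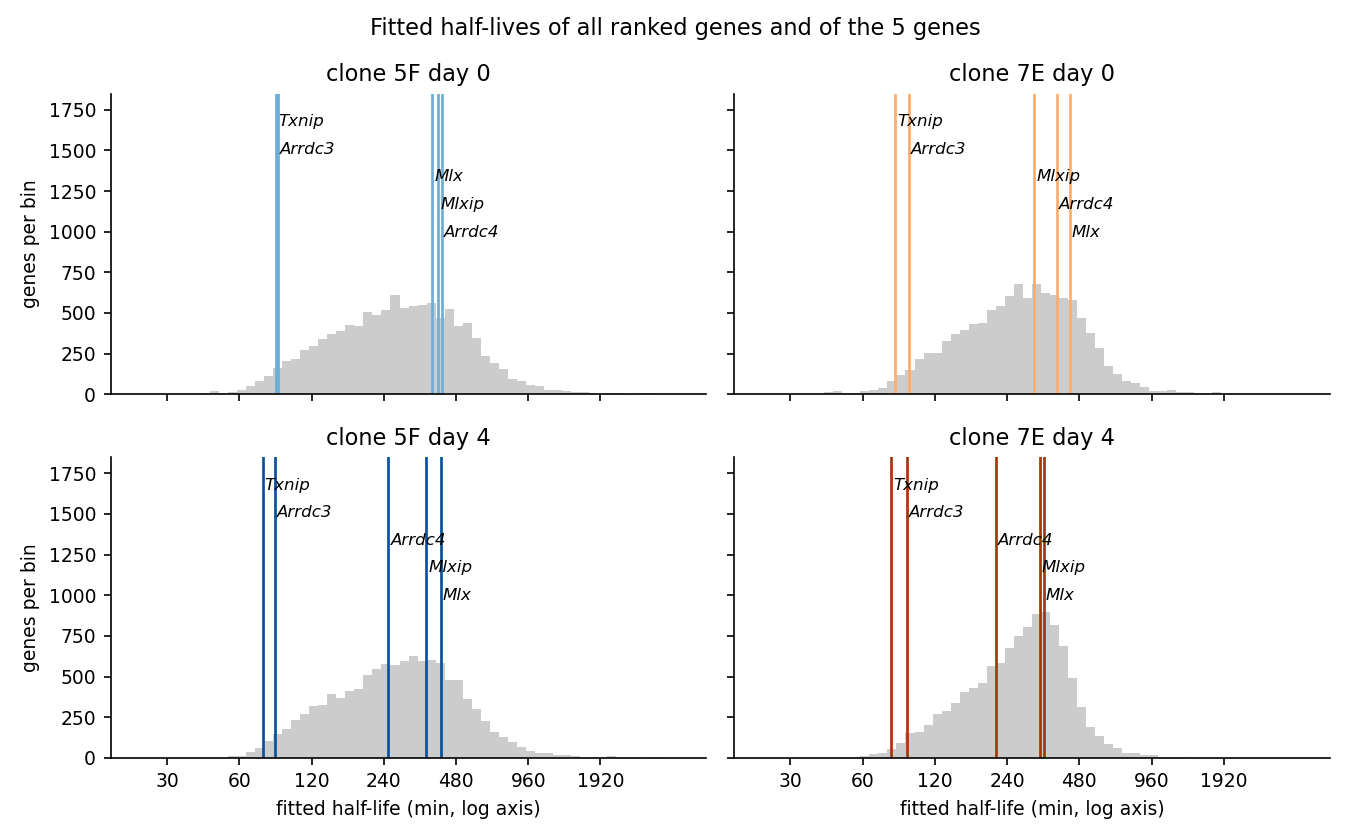
Distribution of fitted half-lives (log axis, min) over the 10987 ranked genes in grey, 1 panel per clone and day, with coloured lines at the 5 genes. Txnip and Arrdc3 lie at the short-lived edge, Mlxip and Mlx above the median of 277 to 279 min, and Arrdc4 above it at day 0 and below it at day 4.

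Fitted as a difference of slopes over all libraries of a clone, Arrdc4 changed by −0.10 ± 0.02 (SE) log2 per hour at day 4 in clone 5F and by −0.12 ± 0.02 in clone 7E, a negative value meaning faster loss at day 4. Only the value in clone 7E was called. In that comparison 0.884% of all genes were called (0.402% higher, 0.482% lower), and in clone 5F 0.196% (0.134% higher, 0.0614% lower), with no member among them by edgeR, although Arrdc4 was called by DESeq2 in clone 5F. The call in clone 7E was lost without replicate 2 or without replicate 3 (both −0.13) and under each library's own spike-in total (−0.10). The other members ranged from −0.10 to 0.01 in clone 5F and from −0.04 to 0.01 in clone 7E, and Txnip had −0.10 ± 0.08 and −0.02 ± 0.09. Between the clones at day 0 no member was called, against 0.0394% of all genes (0.0338% higher, 0.00563% lower). With the same-numbered libraries of each time point as a block, Txnip was called there (−0.06 log2 per hour, among 1756 of 17766 genes). For the difference of the day 4 change between clones 0% of the 18623 genes were called by edgeR, with 476 at an unadjusted p under 0.05 and 4 called by DESeq2. The values in that comparison ran from −0.05 for Mlx to 0.08 for Txnip, with an SE of 0.03 to 0.13. With the block, 463 genes were called, Txnip (0.09) among them. The block also fits a level to each time point in place of a common straight line.

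The wider pathway was read from 44 listed genes outside the members, chosen with earlier results of these data known, of which 43 could be tested. Arrdc5 was at or near 0 counts. In clone 5F 10 rose and 4 fell at day 4 relative to the median gene (4 and 8 under each library's own spike-in total), beside 24.5% of all genes (12.8% higher, 11.6% lower), with a list median of log2 −0.05 beside 0 over all genes. This count was 6 without replicate 1 and 8 without replicate 3. In clone 7E 9 rose and 13 fell (0 and 43 under own spike-in totals), beside 40.1% of all genes (20.7% higher, 19.4% lower), with a median of −0.07 beside −0.01 over all genes. Adjusted p-values are those of the quasi-likelihood fit in edgeR, corrected over all genes tested by Benjamini-Hochberg.

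Neither of the other 2 alpha-arrestin genes tested, Arrdc1 and Arrdc2, rose at day 4. In clone 5F Arrdc1 had log2 −0.20 (adjusted p = 0.265) and Arrdc2 0.10 (adjusted p = 0.548), and in clone 7E Arrdc2 fell by 0.27 on the log2 scale (adjusted p = 0.0194). Among thioredoxin system genes, 2 of 5 rose in clone 5F, the thioredoxin reductases Txnrd3 (log2 0.39 ± 0.09, adjusted p = 0.00375, lost without replicate 1) and Txnrd2 (0.37 ± 0.11, adjusted p = 0.0183, lost without replicate 1, without replicate 3 and under own spike-in totals). In clone 7E 2 of 5 rose relative to the median gene, Txn1, the thioredoxin that TXNIP binds (0.12, adjusted p = 0.0418), and the reductase gene Txnrd1 (0.21, adjusted p = 0.000547), and both were below 0 under own spike-in totals. In clone 5F Txn1 had −0.03 (adjusted p = 0.699).

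Of the 7 NEDD4 family ligases, 2 rose and 1 fell in each clone. Nedd4l rose most in clone 7E, with log2 0.49 ± 0.07 (adjusted p = 5.69e-06) relative to the median gene and −0.61 under each library's own spike-in total. In clone 5F it rose by 0.24 (SE 0.06, adjusted p = 0.0085). Among the 8 genes of the Max-like network, in which MLX and MAX pair with repressors and activators, 2 rose in clone 5F, and 1 rose and 2 fell in clone 7E. Mxd1, a repressor of this network, fell in clone 7E by 0.60 on the log2 scale (SE 0.11, adjusted p = 7.06e-05). The MondoA relative Mlxipl (ChREBP) was low, at a mean of 66.3 counts in clone 5F, with log2 0.03 (adjusted p = 0.926).

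Of the 3 glucose transporter genes none rose, and 1 fell in clone 5F and 2 in clone 7E. Slc2a1 (GLUT1), a glucose transporter of most cells, fell in clone 5F by 0.38 on the log2 scale (SE 0.05, adjusted p = 3.33e-06). It fell in clone 7E too, by 0.34 (SE 0.05, adjusted p = 9.05e-06). In clone 7E Slc2a8 fell by 0.45 (SE 0.11, adjusted p = 0.00257), a call lost without replicate 2. Glycolysis genes numbered 3 higher and 2 lower of 15 in clone 5F, and 3 higher and 6 lower in clone 7E. The triose isomerase gene Tpi1 fell in both clones, by 0.34 (SE 0.05, adjusted p = 1.77e-05) and by 0.72 (SE 0.05, adjusted p = 3.42e-11). The lactate dehydrogenase gene Ldha fell by 0.51 in clone 7E (SE 0.05, adjusted p = 3.7e-09) and by 0.25 in clone 5F (SE 0.05, adjusted p = 0.000399).

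Some glycolysis genes were higher at day 4. Hk1, which phosphorylates glucose, rose in clone 5F (log2 0.32 ± 0.07, adjusted p = 0.0032), a call lost without replicate 1 or without replicate 3. Relative to the median gene, Hk1 also rose in clone 7E (0.30 ± 0.07, adjusted p = 0.00145), and was below 0 under own spike-in totals. Pfkfb3, a kinase that stimulates glycolysis, rose in clone 7E (0.56 ± 0.08, adjusted p = 1.04e-05) relative to the median gene, with −0.54 under own spike-in totals. It rose in clone 5F as well (0.32 ± 0.07, adjusted p = 0.00365). Of the 3 other carbohydrate-response targets, 1 rose in clone 5F, and 1 rose and 1 fell in clone 7E. Klf10 rose by log2 0.34 ± 0.05 in clone 5F (adjusted p = 1.88e-05) and by 0.36 in clone 7E (adjusted p = 5.34e-06, relative to the median gene and below 0 under own spike-in totals), and Tkfc fell in clone 7E by 0.37 (adjusted p = 0.00369), with 0.04 in clone 5F (adjusted p = 0.786). Pklr, with a mean of 29 counts, had −0.45 in clone 5F (adjusted p = 0.2). Tpi1 and several other glycolysis genes have processed copies in the genome, so uniquely mapped counts may miss part of their reads.

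**Figure D4:**
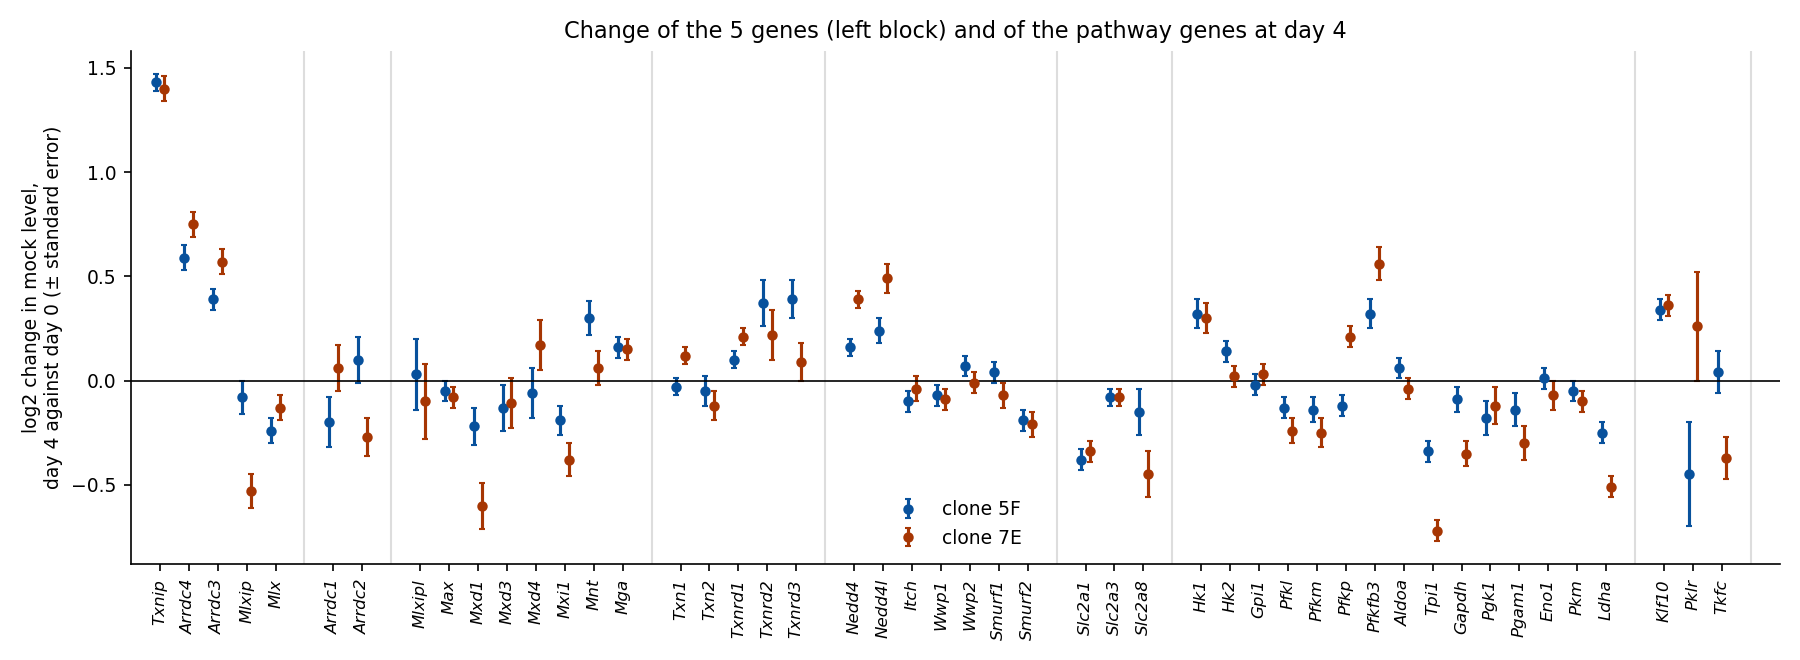
Log2 change of the mock level at day 4 against day 0 with its SE, for the 5 genes (left block) and the tested pathway genes by list, in clone 5F (blue) and clone 7E (red). The Txnip values of 1.43 and 1.40 lie above those of all listed genes. Values are relative to the median gene, and in clone 7E those of Arrdc4, Arrdc3 and all 43 listed genes are below 0 under each library's own spike-in total.

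Between the clones at day 0, 8 pathway genes were higher and 10 lower in clone 7E, 8 of the lower ones in glycolysis. These counts were 3 and 22 under own spike-in totals, and 13 and 13 with the replicate number as a block. Of all genes 39.7% were called (20% higher, 19.7% lower), and 8108 of 16299 with that block. The largest differences were in Arrdc2 (log2 0.72 ± 0.10, adjusted p = 2.6e-06), Tpi1 (−0.67 ± 0.04, adjusted p = 9.75e-12) and the ligase gene Wwp2 (0.66 ± 0.04, adjusted p = 6.99e-12). They were followed by Pgk1 (−0.65 ± 0.07, adjusted p = 1.42e-07), Pfkfb3 (−0.58 ± 0.08, adjusted p = 2.3e-06) and Pfkl (−0.50 ± 0.04, adjusted p = 1.07e-09). In decay, 1 of 43 pathway genes was called in clone 7E, the phosphofructokinase gene Pfkp with −0.11 ± 0.02 log2 per hour (adjusted p = 0.000681), and that call was lost without replicate 2, without replicate 3 and under own spike-in totals. None was called in the other 3 decay comparisons, by edgeR or by DESeq2, but with same-numbered libraries as a block 8 were called between the clones at day 0 and 2 for the difference of the day 4 change.

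The genes whose mock levels followed Txnip most closely were not members of its pathway list. Over the 12 mock libraries and 10986 genes, the highest Pearson correlations with Txnip on the log2 scale were those of 1110038B12Rik (r = 0.987), the testis-type histone genes Hist1h2ba (0.987) and Hist1h2aa (0.984), Gdf3 (0.987), which encodes a TGF-beta family ligand of pluripotent cells, and Nop14 (0.984), a ribosome assembly factor. The 12 libraries fall into groups of 3 by clone and day, so differences between group means can carry these correlations. The values are a description. Hist1h2aa went from 69.7 ± 4.93 to 545 ± 22.7 normalized counts in clone 5F and from 112 ± 21.6 to 740.5 ± 106 in clone 7E (SD, n = 3). Among members, Arrdc4 ranked 910 (r = 0.784) and Arrdc3 1343 (r = 0.706), while Mlxip (−0.754) and Mlx (−0.888) were anticorrelated.

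CRAC is crosslinking and purification of a tagged protein with its RNA. These data and the RPKM below came from separate lines, each with a tagged factor, and not from the clones described above. The paper lists no Aven deletion and no hydroxytamoxifen for these tagged lines. Relative binding is taken over MTR4 (the nuclear exosome helicase), SKIV2L and XRN1 (the cytoplasmic 5′ exonuclease). It is each factor's share of an mRNA's counts after scaling to equal totals, so these 3 values sum to 1 per mRNA. The AVEN value is a ratio outside this sum, so it is not a share to set beside the other 3. Libraries were pooled by the authors, so there is no replicate error and no test. Txnip had 0.477 for MTR4, 0.306 for SKIV2L and 0.217 for XRN1, at percentiles 76.9, 59.6 and 21.4 of 7240 mRNAs, and 0.265 for AVEN (percentile 41.8). Arrdc3 had a similar profile, with 0.505 for MTR4 (percentile 80.3), 0.244 for SKIV2L and 0.251 for XRN1 (percentile 28.3). In this measure, the pair that was short-lived in the clones was thus above the median for MTR4 and below it for XRN1. Half-lives in the tagged lines were not measured.

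Arrdc4 differed from them in this measure too, with 0.489 for XRN1 (percentile 81.0), 0.313 for MTR4, 0.198 for SKIV2L and 0.602 for AVEN (percentile 94.2), the highest AVEN value of the 5 genes. Mlxip had the highest XRN1 share at 0.581 (percentile 91.9) and the lowest SKIV2L share at 0.112 (percentile 10.3). Mlx had the highest SKIV2L share, 0.387 (percentile 73.5), beside 0.308 for MTR4 and 0.306 for XRN1. In the authors' alternative measure scaled to RPKM, the XRN1 percentile of Txnip was 32.8 and that of Arrdc3 42.8. The MTR4 percentile of Arrdc4 was 78.5 there, against 48.4 without this scaling. It lay beside 78.7 for Txnip and 82.1 for Arrdc3, so a high MTR4 share was not particular to the short-lived pair there. The authors' median RPKM over the tagged lines was 43.7 for Txnip, 33.9 for Mlx, 23.7 for Arrdc3, 11.0 for Arrdc4 and 4.1 for Mlxip, where the median over all mRNAs was 21.2.

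**Figure D5:**
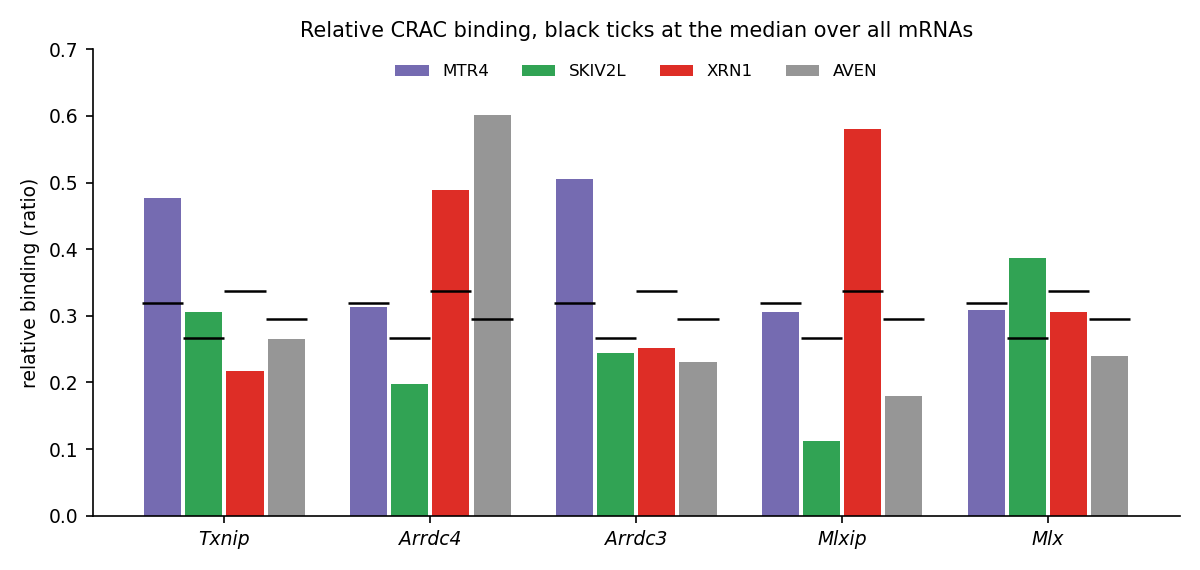
Relative CRAC binding (ratio, bars from 0) of MTR4, SKIV2L, XRN1 and AVEN on the 5 mRNAs, with black ticks at the median over 7240 mRNAs (0.319, 0.267, 0.337 and 0.295). Txnip and Arrdc3 exceed the MTR4 median, Arrdc4 and Mlxip the XRN1 median, and Arrdc4 alone of the 5 the AVEN median. Bars are pooled values from the tagged lines, not from the clones of the other figures, with no error.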

How the data were processed

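The authors aligned the reads with STAR to GRCm38/mm10 with Gencode M16 and deposited raw counts of uniquely mapped reads per gene and ERCC spike-in, which are not normalized. They also deposited, pooled over libraries, relative binding as a ratio, binding scaled to RPKM as a score, and RPKM per tagged line. Their table of fitted half-lives was not used. The members and gene lists were chosen with earlier results of these data known.

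DESeq2 1.42.0 size factors were estimated within each time point. For decay, each time point was also scaled by the median ratio of gene to spike-in counts (34 ERCC with a mean above 50). Levels and slopes were tested in edgeR 4.0.16 (quasi-likelihood, filterByExpr, Benjamini-Hochberg, threshold 0.05), after a check on simulated data. Half-lives came from a line through ln(normalized count + 1), ranked for genes with a mock mean of at least 100. All members, up to 6 called pathway genes per level comparison (3 for decay, mean of at least 100) and the 5 genes most correlated with Txnip are named. Any other gene was picked after its values were seen. Alternatives covered scaling, tool, filter, pseudocount, time points, replicate block and left-out replicates (a number from every group at once). No 2 libraries were copies (chi-square per gene of 2.43 or more in all 46 replicate pairs). Same-numbered libraries of the clones deviated together at each day and time (r 0.14 to 0.88 in 23 pairs), so numbers pair the clones. Those of day 0 and day 4 did not in the mock libraries (r −0.46 to −0.06), so numbers do not pair the days there. With actinomycin D r was −0.35 to 0.70, above 0.1 in 13 of 17 pairs, so numbers link many of these libraries across days. In decay, the fits with same-numbered libraries as a block take this link into account, and the main fits do not. Depth was 24440935 to 34114250 counts per library, and gene names matched 53274 of 53380 identifiers.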

Additional observations from a re-analysis of the deposited data

Results flagged for a closer look

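The change at day 4 differed between the clones, by the interaction term of the edgeR fit (quasi-likelihood, Benjamini-Hochberg over all genes), for 5 pathway genes, where 11.9% of all genes were called. The log2 difference (clone 7E minus clone 5F) was −0.38 for Tpi1 (adjusted p = 0.000321), −0.26 for Ldha (adjusted p = 0.00708) and −0.27 for Gapdh (adjusted p = 0.0442). It was 0.33 for Pfkp (adjusted p = 0.00155) and 0.23 for Nedd4 (adjusted p = 0.00447), relative to the median gene, and −0.70 and −0.80 under each library's own spike-in total. The call on Ldha was lost without replicate 1, that on Nedd4 without replicate 1 or 3, and that on Gapdh without any 1 replicate and with the replicate number as a block. With same-numbered libraries of each day as a block, an alternative chosen after seeing the data, 16 pathway genes were called. The value for Mlxip, −0.44, is a description, since its mock levels chose it.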

How the results depend on the processing

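Scaling each library to its own spike-in total moved the median of all genes by log2 −1.11 in clone 7E, −1.03 for the difference between clones, −0.17 between clones at day 0 and −0.07 in clone 5F. It gave log2 −0.34 for Arrdc4, −0.53 for Arrdc3, −0.54 for Pfkfb3 and −0.61 for Nedd4l in clone 7E. For the difference of responses it gave −0.86 for Arrdc4, −0.85 for Arrdc3, −0.91 for Mlx, −0.70 for Pfkp, −0.80 for Nedd4 and −1.06 for Txnip. Pathway genes called became 43 in clone 7E, 42 for the difference of responses and 0 for decay in clone 7E, where DESeq2 gave 3. Of all genes it called 14974 in clone 7E (258 higher, 14716 lower), 14372 for the difference of responses (54 higher, 14318 lower), 3414 in clone 5F (1063 higher, 2351 lower) and 7909 between clones at day 0 (1618 higher, 6291 lower). The cause was not tested. In decay it called 19 genes in clone 5F, 2 between clones and 1 for the difference, and DESeq2 called 270 in clone 7E, 37 between clones and 4 for the difference. Without the 360 min libraries 84 were called in clone 7E and 1 between clones, and without the filter on low counts 3 between clones.

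Leaving out 1 replicate gave 6 to 18 pathway genes called in clone 5F, 2 to 4 for the difference of responses and 0 to 1 for decay in clone 7E. Of all genes it gave 1845 to 4396 in clone 5F, 4323 to 5980 in clone 7E, 751 to 1446 for the difference of responses, and for decay 2 to 3 in clone 5F, 14 to 71 in clone 7E and 0 to 1 between clones. With the replicate number as a block, 2951 genes were called in clone 5F, 6012 in clone 7E, 8108 between clones and 1929 for the difference of responses. The pathway counts became 11, 20, 26 and 4, and the log2 change of Txnip stayed at 1.43 and 1.40. This block changed no call on a member. With same-numbered libraries within each day and time as a replicate block, chosen after seeing the data, pathway genes called were 16 for the difference of responses (4151 of all genes) and, for decay, 0 in clone 5F, 4 in clone 7E, 8 between clones and 2 for the difference (119, 826, 1756 and 463 of all genes). Txnip was called in decay in clone 5F (−0.11), between clones (−0.06) and for the difference (0.09), and Arrdc4 in clone 5F (−0.10). This block fits a level to each time point in place of a straight line, and the cause of the added calls was not tested.

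Txnip half-lives in clone 5F day 0, day 4, clone 7E day 0 and day 4 were 64.1, 60.5, 58.2 and 61.7 min without the 360 min libraries, and 45.7, 43.0, 39.7 and 43.6 min from mock and 120 min only. Without the mock libraries, an alternative chosen after seeing the data, they were 156, 111, 159 and 123 min. Without 1 replicate they were 81.4 to 87.8, 72.1 to 76.0, 78.9 to 82.4 and 75.4 to 80.2 min. The XRN1 percentile of Txnip was 32.8 in the measure scaled to RPKM.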
